A study of Caenorhabditis elegans with 8 samples.

Results

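The genes described here encode the core proteins of P granules, the germ granules of Caenorhabditis elegans. They are the scaffold genes pgl-1, pgl-2 and pgl-3, the helicase genes glh-1, glh-2, glh-3 and glh-4, and deps-1, meg-3 and meg-4. The 10 genes were taken by name, and all 10 were found among the 46748 gene identifiers of the deposited tables. The rule itself uses none of their values, but the genes were chosen with earlier results of these data known. The series compared poly(A)-selected RNA from whole late embryos of 2 strains, with 4 biological replicates each. The strain called 3A carries the lin-52 allele bn151, with the substitutions L42A, C44A and E46A in a LIN-52 protein tagged with GFP and 3xFLAG. The strain called WT carries the allele bn139, with the same tags on LIN-52 and no substitution, so neither strain has untagged LIN-52. The question was which genes change in expression when the pocket protein LIN-35 no longer associates with the MuvB subcomplex that contains LIN-52. Adults were grown for 72 h, and embryos released by bleaching were held at 20 °C for at most 3.5 h before freezing.

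P granules are condensates of RNA and protein that are inherited by the germ lineage. PGL-1 and PGL-3 are self-associating scaffold proteins, GLH proteins are DEAD-box RNA helicases related to Vasa, DEPS-1 supports PGL-1 localisation, and the disordered proteins MEG-3 and MEG-4 promote assembly in early embryos. In somatic cells of the wild-type embryo, leftover PGL protein is removed by autophagy through the adaptor SEPA-1 and the scaffold EPG-2. DREAM, formed by LIN-35, an E2F-DP dimer and MuvB, represses transcription, and mutants in its class are known for misplaced PGL-1 in somatic cells. In RNA from whole embryos, more cells with a transcript and more transcript per cell cannot be told apart.

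Between 17346339 and 29101114 read pairs were assigned to genes in the 3A libraries, and between 14667743 and 68040557 in the WT libraries. Ribosomal RNA genes took 1.75% to 40.7% of these counts in 3A and 0.720% to 3.24% in WT. Levels are given as CPM, the count of a gene scaled to one library size for all, after TMM scaling (trimmed mean of M-values) of the libraries. A count of 3, taken as the smallest detectable signal, corresponds to 0.0717 to 0.275 CPM in the 3A libraries and 0.0229 to 0.249 CPM in the WT libraries, and it covers counting error only. WT replicate 1 stood apart from the other WT libraries, with a score of -83.9 on the first principal component against 18.7 to 54.6. The 3A libraries were split on this component too, with scores of -43.7, 31.9, 8.43 and -34.8 for replicates 1 to 4. 3A replicates 1 and 4 thus lay on the side of WT replicate 1. lin-52 itself had 6.86 ± 2.66 CPM in 3A and 6.78 ± 3.81 CPM in WT (SD, n = 4 each; adjusted p = 0.998 in edgeR), and gene counts do not show the substitutions. For the marker lists, a gene is called detected when its count is above 0 in any of the libraries, which can lie under the count of 3 given above. All 43 genes of a list of late differentiation markers (muscle, epidermis, intestine, neurons) were detected, with a summed level of 24037 to 57004 CPM in 3A and 13146 to 71753 CPM in WT. All 24 maternal and early embryo genes were detected too, at 217 to 362 CPM in 3A and 158 to 277 CPM in WT. The mean log2 level of the early list was 2.62 ± 0.34 in 3A and 2.11 ± 0.31 in WT (SD, n = 4 each; exact two-sided permutation p = 0.0857). Germ cell markers (11 of 11 detected) summed to 38.5 to 66.2 CPM in 3A and 26.9 to 62.3 CPM in WT, and none was at 0. Vitellogenin genes of the adult intestine (6 of 6 detected) summed to 1.45 to 102 CPM in 3A and 2.73 to 76.6 CPM in WT. Major sperm protein genes (26 of 29 detected, with msp-10, msp-63 and msp-74 at 0) stayed at 1.24 to 3.86 CPM in 3A and 1.18 to 2.82 CPM in WT, and oocyte and eggshell genes (9 of 9) at 10.997 to 31.4 CPM in 3A and 9.32 to 17.2 CPM in WT.

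In 3A embryos 9 of the 10 P granule genes had a positive log2 fold change with TMM scaling, and 6 of the 10 when libraries were scaled by size alone, where deps-1, glh-4 and meg-4 turned slightly negative. pgl-3, glh-1 and meg-3 showed the largest differences, and pgl-2 was the exception under both scalings. In edgeR's quasi-likelihood test 0 of the 10 had an adjusted p-value under 0.05, where 0.371% of the 12664 genes tested did (0.355% with a higher level in 3A). DESeq2 also called 0 of the 10, where it called 165 of the 12664 genes. Before adjustment, 3 of the 10 had a p-value under 0.05, all higher in 3A. Of all genes 9.75% had one in either direction and 5.72% with a higher level in 3A. The median log2 fold change of the members was 0.46, against -0.08 for all genes tested. Without WT replicate 1 the members' median was 0.88, against -0.02 for all genes. The other gene lists described here had medians of 0.28 to 1.02 in that fit, among them 0.76 for the maternal and early embryo genes. With scaling by size alone the members' median was 0.16. A positive log2 fold change was seen in 42.8% of all genes. Scaling by size alone moved the median of all genes by -0.32. For none of the 10 members were all 3A libraries above all WT libraries, which held for 3.8% of all genes. WT replicate 1 was the library that closed the gap for pgl-3 and glh-1. Without it both passed (edgeR adjusted p = 0.0399 for pgl-3 and 0.0105 for glh-1), among 196 genes called of 13145 tested (1.49%). That library had the highest WT level of both genes, so leaving it out lowers their WT means. These p-values are therefore no independent evidence of a difference. 3A replicates 1 and 4, on the same side of the first principal component, were kept in that fit. pgl-3 and glh-1 also passed with 1 surrogate variable in the fit (edgeR adjusted p = 0.00826 for pgl-3 and 0.00224 for glh-1), where 3.02% of all genes were called.

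**Figure D1:**
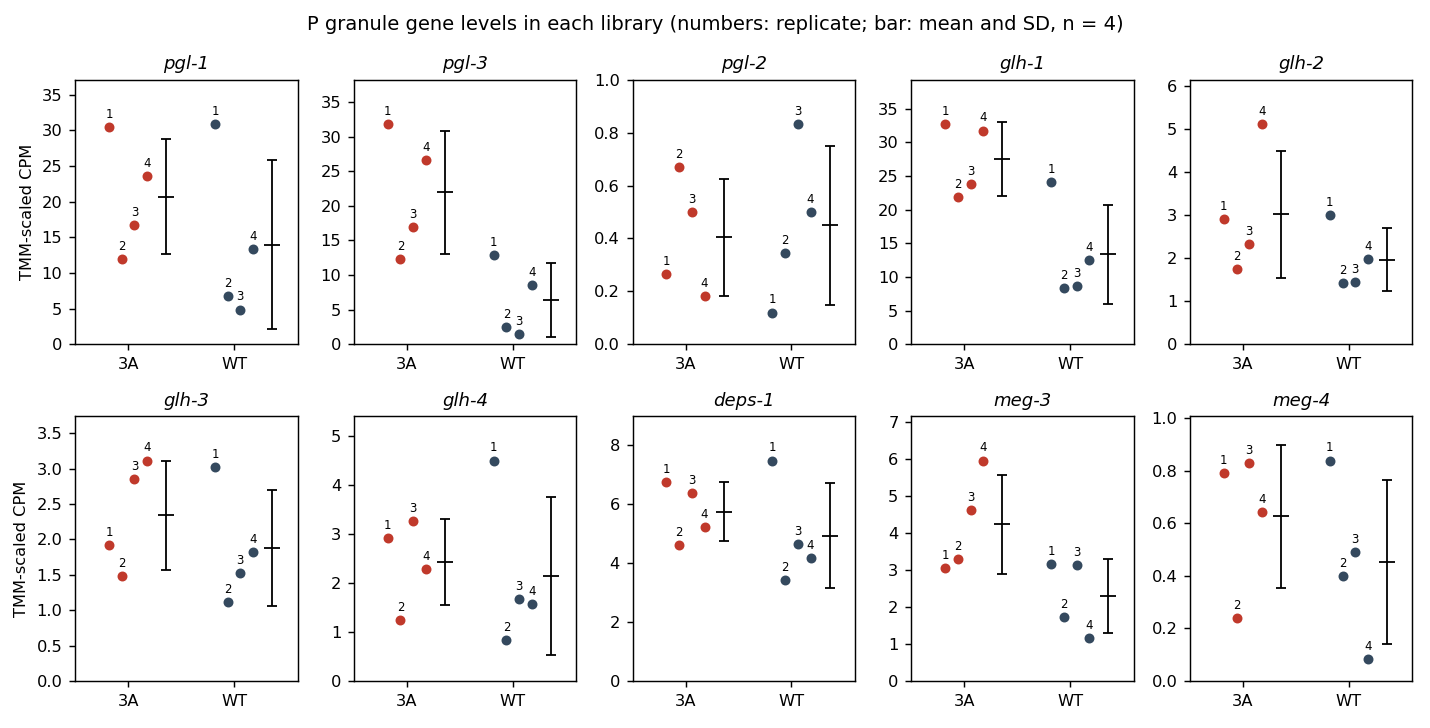
Level of each P granule gene in TMM-scaled CPM (vertical axis, linear, from 0) in the 4 libraries of 3A and the 4 of WT; each point is a library, the number beside it is its replicate, and the bar gives the mean and SD. pgl-3 lies between 12.3 and 31.9 CPM in 3A and between 1.51 and 12.8 CPM in WT, and the highest WT point of pgl-1, pgl-3 and glh-1 is replicate 1.

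Per kilobase of exon, glh-1, pgl-3 and pgl-1 were the most abundant members in 3A, at 9.95 ± 1.998, 9.61 ± 3.89 and 8.30 ± 3.24 CPM per kb (SD, n = 4). The ranges of these 3 levels overlapped, although pgl-3 exceeded pgl-1 in 4 of 4 libraries. deps-1 followed at 2.80 ± 0.486 CPM per kb, separate from pgl-1 above it and from meg-3 below it, at 1.52 ± 0.484 CPM per kb. glh-2, glh-3 and glh-4, at 0.941, 0.939 and 0.647 CPM per kb, formed an overlapping group. meg-4 (0.231 CPM per kb) and pgl-2 (0.201 CPM per kb) were lowest and overlapped each other. In WT the order at the top differed, with pgl-1 first at 5.597 ± 4.76, glh-1 at 4.83 ± 2.67 and pgl-3 at 2.78 ± 2.33 CPM per kb (SD, n = 4). There pgl-3 was higher than deps-1, at 2.40 ± 0.866 CPM per kb, in 2 of 4 libraries only. The remaining WT members ran from meg-3, at 0.825 CPM per kb, down to meg-4, at 0.167 CPM per kb, and each overlapped its neighbour in that order.

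The scaffold gene pgl-3 (WBGene00003994; WBcel235 chromosome V, 4755979 to 4758587, plus strand; 8 exons and 628 to 693 residues by annotated isoform) showed the largest difference of the 10. Its level was 31.9, 12.3, 16.98 and 26.7 CPM in 3A replicates 1 to 4, against 12.8, 2.50, 1.51 and 8.55 CPM in WT replicates 1 to 4. The groups overlapped by a single pair of libraries, since WT replicate 1 lay just above 3A replicate 2. The means were 21.96 ± 8.89 CPM in 3A and 6.35 ± 5.32 CPM in WT (SD, n = 4 each). The log2 fold change of 1.81 (SE 0.60) was exceeded by 0.940% of all genes tested, and it did not pass (edgeR unadjusted p = 0.0108, adjusted p = 0.380). Leaving out WT replicate 1 gave 2.50 ± 0.53 (SE; adjusted p = 0.0399, edgeR), a move past the threshold that none of the other 7 libraries made when left out. In 3A the highest pgl-3 levels were in replicates 1 and 4, whose ribosomal RNA shares of 16.1% and 40.7% were also the highest. With ribosomal RNA genes left out of the fit, the log2 fold change of pgl-3 was 1.79 (edgeR adjusted p = 0.375). Any other part of these shares in the result was not tested.

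pgl-1 (WBGene00003992; chromosome IV, 6974441 to 6977318, minus strand; 730 to 771 residues) encodes the founding PGL protein. It had 30.5, 12.001, 16.7 and 23.6 CPM in 3A replicates 1 to 4, against 30.9, 6.75, 4.86 and 13.3 CPM in WT replicates 1 to 4. WT replicate 1 held the highest pgl-1 level of all 8 libraries, while WT replicates 2 and 3 lay below every 3A library. The log2 fold change was 0.57 ± 0.52 (SE; adjusted p = 0.761, edgeR), a difference within the spread of the replicates. It reached 1.35 ± 0.38 (SE; adjusted p = 0.0852, edgeR) without WT replicate 1 and lay between 0.28 and 0.76 without any other library.

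pgl-2 (WBGene00003993; chromosome III, 8670543 to 8675435, minus strand; 532 residues) encodes the PGL paralogue that is not needed for P granule assembly. It was close to the limit of detection in several libraries. It had 4, 28, 15 and 2 counts in 3A replicates 1 to 4 and 4, 25, 109 and 6 counts in WT replicates 1 to 4. Its mean level was 0.404 ± 0.222 CPM in 3A and 0.449 ± 0.2996 CPM in WT (SD, n = 4 each). The log2 fold change, -0.08 ± 0.59 (SE; adjusted p = 0.979, edgeR), was smaller than its error. Of its 2007 exonic bases 139 are shared with fli-1 on the same strand, and reads that match both genes are not in the gene counts.

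Within a library, the balance between pgl-3 and pgl-1 can be read without scaling libraries to each other. pgl-3 supplied 51.1%, 50.7%, 50.4% and 53.01% of the counts of these 2 genes in 3A replicates 1 to 4. In WT replicates 1 to 4 it supplied 29.3%, 27.01%, 23.6% and 39.2%. The 95% Wilson intervals of the shares, which cover counting error only, ran from 47.4% to 57.1% over the 3A libraries and from 20.9% to 45.2% over the WT libraries. This share was chosen as a measure after the values of the genes were seen. All 3A libraries lay above all WT libraries, and the 3A libraries lay close together, with a mean of 51.3% ± 1.16 against 29.8% ± 6.67 in WT (SD, n = 4 each). As counts, the pgl-3 to pgl-1 ratio was 1.05, 1.03, 1.02 and 1.13 in 3A replicates 1 to 4, and 0.415, 0.370, 0.310 and 0.644 in WT replicates 1 to 4.

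On the log2(CPM + 0.5) scale the pgl-3 to pgl-1 ratio differed by 1.21 between 3A and WT, a 2.31-fold difference (two-sided exact permutation p = 0.0286). That is the smallest p-value 4 libraries against 4 can give. Adjusted over the 6 ratios between members that were compared it was 0.114 and did not pass. A ratio that is alone at the smallest p-value cannot pass after this adjustment, however large its difference. When each library was left out in turn, the difference lay between 1.11 and 1.38, with exact permutation p-values of 0.0286 to 0.0571.

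**Figure D2:**
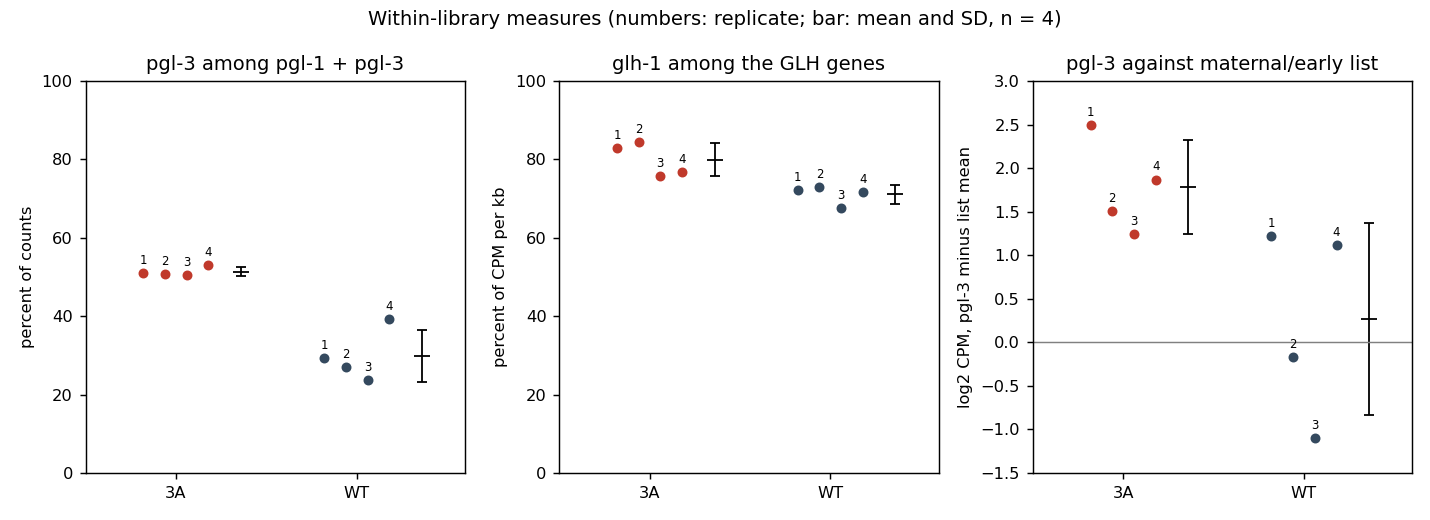
Share of pgl-3 in the summed counts of pgl-1 and pgl-3 (left, percent), share of glh-1 in the summed CPM per kb of the 4 GLH genes (middle, percent), and log2 level of pgl-3 minus the mean log2 level of the maternal and early embryo list (right). Points are libraries with their replicate number and bars are mean and SD. In all 3 panels every 3A library lies above every WT library. The left and middle measures were chosen after the values were seen. The groups overlapped for every ratio compared other than pgl-3 to pgl-1, and for every member other than pgl-3 relative to the list.

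Among the helicases, glh-1 (WBGene00001598; chromosome I, 6854478 to 6857536, plus strand; 763 residues), the main Vasa-like helicase of the granules, was the most abundant. Its level was 32.8, 21.9, 23.8 and 31.8 CPM in 3A replicates 1 to 4, against 24.1, 8.33, 8.64 and 12.5 CPM in WT replicates 1 to 4. WT replicate 1 again lay within the 3A range, and the other 3 WT libraries lay below it. The means were 27.6 ± 5.53 CPM in 3A and 13.4 ± 7.38 CPM in WT (SD, n = 4 each), and the log2 fold change was 1.04 ± 0.36 (SE; unadjusted p = 0.0129 and adjusted p = 0.399, edgeR). Leaving out WT replicate 1 gave 1.51 ± 0.26 (SE; adjusted p = 0.0105, edgeR), and with any other library left out the value was 0.87 to 1.14 and did not pass.

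The other GLH genes had much lower levels per kilobase, and the 3A and WT libraries overlapped for each of them. glh-2 (WBGene00001599; chromosome I, 6513928 to 6517507, plus strand; 974 residues), the closest relative of glh-1, had 2.91, 1.75, 2.33 and 5.13 CPM in 3A replicates 1 to 4 and 3.00, 1.42, 1.44 and 1.99 CPM in WT replicates 1 to 4. A single library, 3A replicate 4, lay above the WT range. Its log2 fold change was 0.61 ± 0.40 (SE; adjusted p = 0.656, edgeR). glh-3 (WBGene00001600; chromosome I, 5792321 to 5795114, minus strand; 720 residues) had a log2 fold change of 0.32 ± 0.39 (SE; adjusted p = 0.83, edgeR), with 2.34 ± 0.771 CPM in 3A and 1.87 ± 0.822 CPM in WT (SD, n = 4 each). glh-4 (WBGene00001601; chromosome I, 3727027 to 3731179, plus strand; 1156 residues), the longest of the family, had 2.42 ± 0.883 CPM in 3A and 2.15 ± 1.61 CPM in WT, a log2 fold change of 0.17 ± 0.50 (SE; adjusted p = 0.936, edgeR) that turned to -0.04 with scaling by library size alone. Reads aligned to several places were not counted to genes, so helicase sequence shared between glh-1 and glh-2 may be missing from both levels.

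glh-1 held 82.9%, 84.3%, 75.8% and 76.9% of the CPM per kb of the 4 GLH genes in 3A replicates 1 to 4. Its share was 72.2%, 73.0%, 67.5% and 71.7% in WT replicates 1 to 4. The groups did not overlap, with means of 80.0% ± 4.24 in 3A and 71.1% ± 2.46 in WT (SD, n = 4 each; exact two-sided permutation p = 0.0286, the smallest possible, unadjusted). This share too was chosen after the values were seen. Among the planned ratios, glh-1 to glh-2 was higher in 3A by 0.65 and glh-1 to glh-4 by 0.86 on the log2 scale, with overlapping groups (two-sided exact permutation p = 0.0571 each, adjusted p = 0.114 each). The glh-2 to glh-4 ratio, at 0.24 ± 0.60 in 3A and 0.03 ± 0.46 in WT on the log2 scale, differed by less than its spread (exact permutation p = 0.600). pgl-1 to glh-1 was -0.47 ± 0.30 in 3A and -0.15 ± 0.49 in WT (SD, n = 4 each; exact permutation p = 0.314, adjusted p = 0.377).

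meg-3 (WBGene00001569; chromosome X, 1986469 to 1989607, minus strand; 862 residues) encodes the disordered protein that coats the embryonic granules. It had 3.04, 3.30, 4.62 and 5.95 CPM in 3A replicates 1 to 4, against 3.15, 1.73, 3.12 and 1.16 CPM in WT replicates 1 to 4. Here 3A replicate 1 lay just under WT replicates 1 and 3, and the other 3A libraries were above all of WT. The log2 fold change was 0.85 ± 0.37 (SE; unadjusted p = 0.0427 and adjusted p = 0.501, edgeR), and with each library left out in turn it lay between 0.66 and 1.04. That range was the narrowest among the 3 members with an unadjusted p-value under 0.05. With scaling by library size alone, however, meg-3 was at 0.41 (edgeR unadjusted p = 0.498), against 1.72 for pgl-3 and 0.84 for glh-1.

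meg-4 (WBGene00016485; chromosome X, 1682954 to 1686419, plus strand; 832 residues), the paralogue of meg-3, was scarce. It had 12, 10, 25 and 7 counts in 3A replicates 1 to 4 and 28, 29, 64 and 1 counts in WT replicates 1 to 4, the last under the floor of 3 counts. Its log2 fold change was 0.35 ± 0.57 (SE; adjusted p = 0.873, edgeR), and -0.03 with scaling by library size alone. The meg-3 to meg-4 ratio was 2.06 ± 0.47 in 3A and 1.53 ± 0.24 in WT on the log2(CPM + 0.5) scale (SD, n = 4 each; exact permutation, two-sided, p = 0.0857, adjusted p = 0.129).

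deps-1 (WBGene00022034; chromosome I, 506473 to 509056, plus strand; 574 to 619 residues), needed for normal PGL-1 localisation and glh-1 expression, was the steadiest member of moderate abundance. Its level was 6.74, 4.59, 6.35 and 5.22 CPM in 3A replicates 1 to 4 and 7.46, 3.41, 4.63 and 4.15 CPM in WT replicates 1 to 4. The ranges overlapped, with WT replicate 1 the highest library of all. Its log2 fold change was 0.22 ± 0.30 (SE; adjusted p = 0.850, edgeR), and -0.07 with scaling by library size alone.

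**Figure D3:**
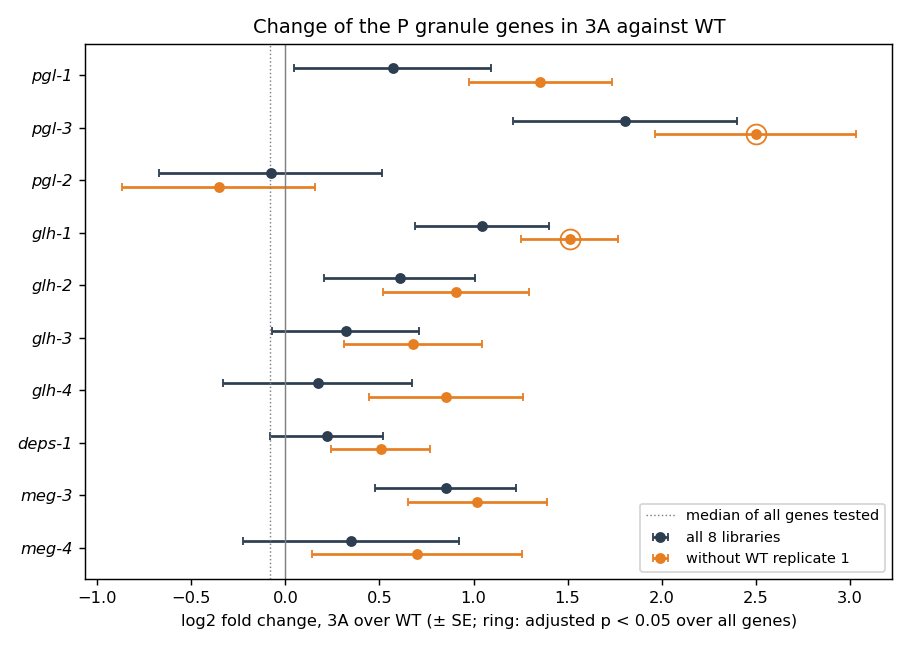
Log2 fold change of each P granule gene, 3A over WT, with its SE (horizontal axis), from all 8 libraries and without WT replicate 1; the dotted line is the median of all genes and a ring marks an adjusted p-value under 0.05. With all 8 libraries no point is ringed. Without WT replicate 1, the WT library with the highest level of both genes, pgl-3 (2.50) and glh-1 (1.51) are ringed.

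The labels give only an upper limit for the time embryos were held, so each member was also set against the maternal and early embryo list in the same library. Relative to that list, pgl-3 lay at 2.50, 1.51, 1.25 and 1.87 log2 units in 3A replicates 1 to 4, and at 1.22, -0.17, -1.09 and 1.12 log2 units in WT replicates 1 to 4. All 3A libraries were above all WT libraries, by a narrow margin between 3A replicate 3 and WT replicate 1. This held for 0.726% of the 12664 genes. The difference was 1.51 log2 units (two-sided exact permutation p = 0.0286, the smallest possible; adjusted p = 0.286 over the 10 members, all of which were compared). A member that is alone at the smallest p-value cannot pass after that adjustment. The difference lay between 1.06 and 1.83 when each library was left out, with exact permutation p-values up to 0.143. With a pseudocount of 0.1 CPM in place of 0.5 CPM the difference was 1.57 and the exact permutation p-value 0.0571. glh-1 was higher by 0.62 relative to the list, with overlapping groups (exact permutation p = 0.0571). The other 8 members lay between -0.56 (pgl-2) and 0.31 (pgl-1) log2 units, with exact permutation p-values of 0.0857 or more. glh-2, glh-3, glh-4, deps-1 and meg-4 were lower in 3A relative to the list, though their log2 fold change in CPM was positive.

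Set against the late differentiation list, every member's difference was larger by 0.65 log2 units, because the early list minus the late list averaged -2.50 in 3A and -3.15 in WT. Relative to the late list, pgl-3 averaged -0.72 log2 units in 3A and -2.89 in WT, and glh-1 averaged -0.33 in 3A and -1.60 in WT. For these and no other member every 3A library was above every WT library, which held for 2.35% of all genes. The late list itself averaged 5.12 ± 0.38 in 3A and 5.26 ± 0.59 in WT (log2 level, SD, n = 4 each; exact permutation p = 0.743). The part of embryo stage in the levels of the members was not tested beyond these relative values.

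The genes whose levels followed each member most closely over the 8 libraries were ranked by the root mean square (RMS) difference of centred log2 levels, among the 10520 genes whose mean level reached 1 CPM. Closest to pgl-3 were set-9, which encodes a SET-domain protein, at an RMS of 0.366, enu-3.2 at 0.391 and the linker histone H1 gene hil-4 at 0.400. pgl-1 was the 44th and glh-1 the 57th closest gene to pgl-3. set-9 had 45.3 ± 26.0 CPM in 3A and 12.7 ± 12.98 CPM in WT (SD, n = 4 each; log2 fold change 1.84 ± 0.66 SE, adjusted p = 0.418 in edgeR). enu-3.2 had 19.1 ± 6.34 CPM in 3A and 3.78 ± 2.78 CPM in WT (log2 fold change 2.34 ± 0.48 SE, adjusted p = 0.0794 in edgeR). Since these genes were picked for levels like those of pgl-3 in the same libraries, their values are no independent evidence.

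The genes nearest to pgl-1 were the proteasome subunit gene pbs-1 (RMS 0.0828), the Y-box RNA-binding protein gene cey-4 (0.102) and WBGene00021411 (0.123), which has no symbol in the tables used. All 3 had log2 fold changes between 0.46 and 0.65 and did not pass. Without WT replicate 1 their log2 fold changes were 1.29 for pbs-1, 1.13 for cey-4 and 1.30 for WBGene00021411, and none passed. Nearest to glh-1 were the separase gene sep-1 (0.167), the kinetochore gene zwl-1 (0.170) and pqn-59 (0.176). sep-1 had 19.3 ± 3.79 CPM in 3A and 8.38 ± 4.69 CPM in WT (SD, n = 4 each), which is a log2 fold change of 1.202 ± 0.36 (SE; adjusted p = 0.314, edgeR). These are descriptions over 8 libraries that include both genotypes and share their scaling. Among the members themselves glh-3 and deps-1 were the closest pair (RMS 0.263) when meg-4 and pgl-2, both under 1 CPM and damped by the pseudocount, are left aside, while pgl-3 was at least 0.644 from every other member.

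Of 20 genes for other P granule proteins, 16 had a positive log2 fold change, with a median of 0.47, and 0 passed (edgeR, adjusted over all genes; 4 at an unadjusted p-value under 0.05). For comparison with this and the following lists in the fit of all 8 libraries, 42.8% of all genes tested had a positive log2 fold change. An unadjusted p-value under 0.05 in edgeR was seen for 9.75% of all genes, and for 5.72% with a higher level in 3A. In 4 of the 20 all 3A libraries lay above all WT libraries. These were mip-1, ifet-1, wago-1 and ekl-1, where 3.8% of all genes did so. mip-1, also called eggd-1, encodes a LOTUS-domain partner of GLH-1. It had 1.18 ± 0.375 CPM in 3A and 0.502 ± 0.0662 CPM in WT (SD, n = 4 each), which is a log2 fold change of 1.19 ± 0.38 (SE; adjusted p = 0.353, edgeR). ifet-1, a translational repressor related to the eIF4E transporter, had 53.4 ± 17.4 CPM in 3A and 28.5 ± 9.91 CPM in WT (log2 fold change 0.91 ± 0.32 SE, adjusted p = 0.409 in edgeR). The Argonaute gene wago-1 had a log2 fold change of 0.73 ± 0.28 (SE; adjusted p = 0.455, edgeR).

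Of 15 genes for the neighbouring Z granules, mutator foci and SIMR foci, 1 rose and none fell. It was nyn-1, which encodes a NYN-domain ribonuclease of mutator foci, with 11.5 ± 1.99 CPM in 3A and 3.07 ± 1.15 CPM in WT (SD, n = 4 each; log2 fold change 1.92 ± 0.31 SE, adjusted p = 0.0206 in edgeR). The call held without 3A replicate 2 and without WT replicate 1. It was lost when any of the other 6 libraries was left out (edgeR adjusted p = 0.0652 to 0.112) and with scaling by library size alone (edgeR adjusted p = 0.6252). Its log2 fold change lay between 1.78 and 2.22 over the 8 fits without a library and was 1.68 with library size alone. pid-2, a Z granule gene, had 12.96 ± 4.96 CPM in 3A and 4.04 ± 2.50 CPM in WT (log2 fold change 1.68 ± 0.42 SE, adjusted p = 0.205 in edgeR), and passed without WT replicate 1. The nucleotidyltransferase gene mut-2 had a log2 fold change of 0.75 ± 0.36 (SE; adjusted p = 0.525, edgeR). The list median was 0.31, with 13 of 15 values positive.

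Of 10 genes that regulate granule assembly and disassembly, 0 passed (edgeR; 2 at an unadjusted p-value under 0.05), 5 values were positive and the median was 0.03. Without WT replicate 1, 8 were positive and the median was 0.33. The polarity gene mex-6 had the largest difference, with 2.09 ± 0.943 CPM in 3A and 0.870 ± 0.302 CPM in WT (SD, n = 4 each; log2 fold change 1.21 ± 0.42 SE, adjusted p = 0.407 in edgeR). Its partner mex-5 had a log2 fold change of 0.88 ± 0.40 (SE; adjusted p = 0.511, edgeR). zyx-1, the zyxin gene, had -0.62 ± 0.45 (SE; adjusted p = 0.689, edgeR), and 0.05 without WT replicate 1.

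Of 25 genes listed for PGL clearance and autophagy, 23 were tested, 0 passed (edgeR; 1 at an unadjusted p-value under 0.05) and the median log2 fold change was 0.06, or 0.30 without WT replicate 1. The adaptor gene sepa-1 had 101 ± 13.8 CPM in 3A and 54.2 ± 7.81 CPM in WT (SD, n = 4 each), and its groups did not overlap. All 3A libraries lay above all WT libraries for 3 of the 23 genes, atg-4.1 among them, where 3.8% of all genes did so. The log2 fold change of sepa-1 was 0.90 ± 0.24 (SE; unadjusted p = 0.00323 and adjusted p = 0.262, edgeR), with a range of 0.79 to 0.97 when each library was left out. In DESeq2 sepa-1 passed (adjusted p = 0.0181), as did pid-2 (adjusted p = 0.0196), among 165 genes called of 12664. With scaling by library size alone sepa-1 was at 0.57 and pid-2 at 1.42, and neither passed (edgeR adjusted p = 0.799 each). The protease gene atg-4.1 had 0.48 ± 0.22 (SE; adjusted p = 0.520, edgeR) and the LC3 homologue lgg-2 had -0.55 ± 0.31 (SE; adjusted p = 0.588, edgeR).

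**Figure D4:**
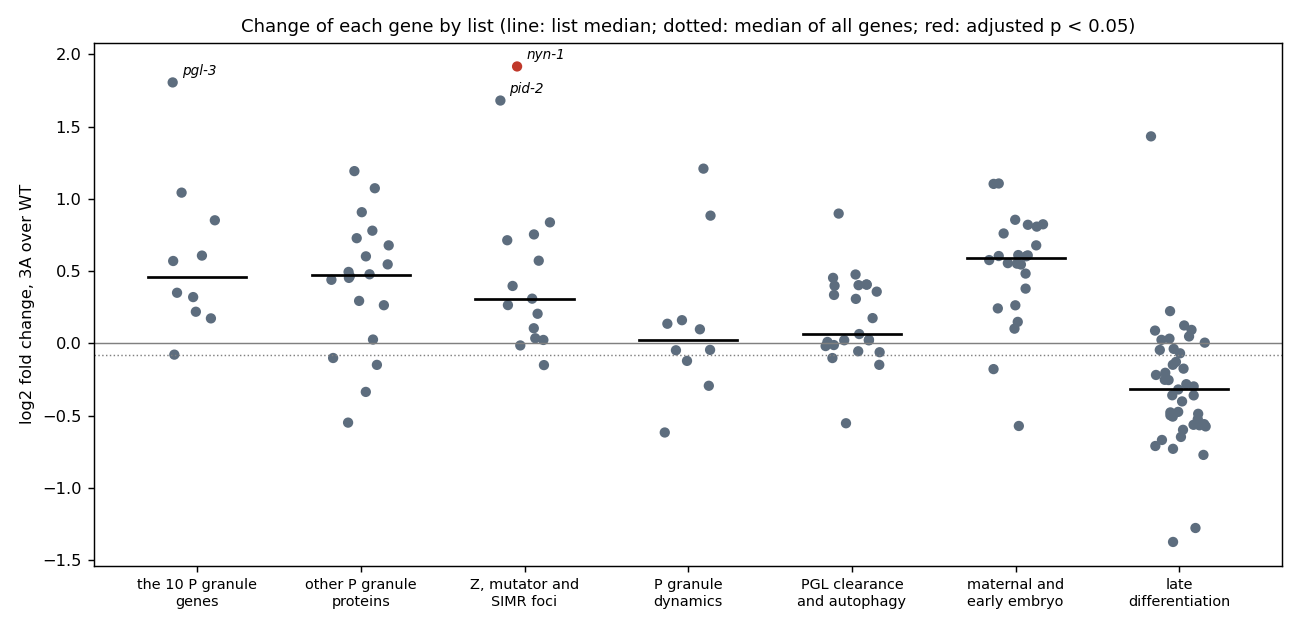
Log2 fold change of each tested gene, 3A over WT (vertical axis), in 7 gene lists (horizontal axis); points are genes, black lines list medians, the dotted line the median of all genes, and red marks an adjusted p-value under 0.05. nyn-1 at 1.92 is the only red point, and pgl-3 at 1.81 is the highest of the 10 P granule genes.

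Marker and regulator lists stood as follows in the same fit. All 9 germ cell markers tested had a positive log2 fold change (median 0.34, 0 passed and 0 had an unadjusted p-value under 0.05 in edgeR), and its 3 genes of smallest p-value were gld-1 at 1.68 (SE 0.78), mes-4 at 0.57 (SE 0.30) and mes-3 at 0.57 (SE 0.45), with edgeR adjusted p-values of 0.519, 0.584 and 0.717. The gld-1 value was 0.49 without 3A replicate 4, and the list median was 0.62 without WT replicate 1. Of the 8 DREAM component genes 7 were positive (median 0.47, 0 passed, 1 at an unadjusted p-value under 0.05). lin-35 had 0.67 (SE 0.28), lin-9 had 0.66 (SE 0.34) and dpl-1 had 0.55 (SE 0.30), with edgeR adjusted p-values of 0.482, 0.575 and 0.588. The maternal and early embryo list had a median of 0.59 (22 of 24 positive, 0 passed in edgeR, 5 at an unadjusted p-value under 0.05). The late list had a median of -0.32 with all 8 libraries and 0.33 without WT replicate 1 (0 of 43 passed in either fit, 3 at an unadjusted p-value under 0.05 with all 8). Vitellogenin, sperm and eggshell lists had medians of 0.84 (6 tested), 0.87 (2 tested) and 0.68 (9 tested), with 0 passing in edgeR and, before adjustment, 1 sperm gene under 0.05. Every tested gene of these lists had a positive log2 fold change. The part of these shifts in the levels of the P granule genes was not tested.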

How the data were processed

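Each library came with a table of raw counts per WormBase gene that the authors deposited. fastp, STAR, HTSeq, DESeq2 and assembly WBcel235 are named in the submitters' processing notes, and stranded counting is named in the file titles; versions and annotation release are not given in the sources used here. The 5 closing counters (3.32% to 15.5% of each file) were left out. Of 46748 identifiers 43693 had a symbol in a supplied table; 46449 were in Ensembl release 115 (WBcel235), which gave positions and exonic lengths. Counts were tested in R 4.3.3 with edgeR 4.0.16 (filterByExpr with minimum count 10, TMM, quasi-likelihood test, Benjamini-Hochberg adjustment over 12664 genes, called under 0.05), and the test was checked on simulated data. The SE is the log2 fold change divided by the square root of F. DESeq2 1.42.0 and sva 3.50.0 gave alternatives. With 4 libraries against 4 the exact permutation test has 70 arrangements; levels there are log2(CPM + 0.5). The P granule genes and all lists were chosen with earlier results of these data known. Named genes are the members, lin-52, the 3 genes of smallest p-value in each of 6 lists and the 3 nearest patterns of pgl-1, pgl-3 and glh-1. The shares within families, the list counts without WT replicate 1 and the flanking genes were added after the data were seen, and ekl-1 and the markers at 0 were named after their values were seen. epg-11 was not found by name. Replicates are labelled biological, and replicates of a group always differed by more than sampling noise (lowest chi-square per degree of freedom 60.3).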

Additional observations from a re-analysis of the deposited data

How the results depend on the processing

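The count of genes called was 47 in the fit with TMM and no further term, 165 with DESeq2 (146 higher and 19 lower in 3A), 10 with scaling by library size alone, 71 with no filter, 175 (1.38%) with the replicate block, 383 with 1 surrogate variable, and 18 to 196 when each library was left out. No P granule gene was called in that fit, in DESeq2, with library size alone, with no filter or with ribosomal RNA genes left out. There were 2 (pgl-3 and glh-1) called with the replicate block, 2 with 1 surrogate variable, and 0 to 2 when each library was left out, with the 2 only without WT replicate 1. Of 140 values of the 10 members under 14 alternatives, 124 kept their direction and side of the threshold, 6 passed it and 10 changed sign. With library size alone glh-4 was -0.042, deps-1 -0.071, meg-4 -0.033 and lin-52 -0.37. lin-52 was -0.020 with no filter, -0.018 with ribosomal RNA genes left out and -0.030 with 1 surrogate variable. pgl-2 was 0.041 with the replicate block and 0.18 with 1 surrogate variable. Leaving out each library gave -0.44 to 0.52 for pgl-2, -0.11 to 0.85 for glh-4, -0.21 to 0.46 for lin-52 and -0.86 to 0.051 for zyx-1; -0.043 to 0.43 for the log2 ratio of glh-2 to glh-4; and, relative to the maternal and early embryo list, -0.053 to 0.66 for pgl-1 and -0.19 to 0.13 for glh-2. The cause of these moves was not tested. The replicate numbers share only a number: same-numbered libraries deviated together with correlations of 0.57, 0.60, 0.18 and 0.0085 for replicates 1 to 4, and 3A replicate 1 alone was closest to its own number. With the block pgl-3 was 2.18 (edgeR adjusted p = 0.00330) and glh-1 1.16 (adjusted p = 0.0355). Over 16 sign assignments a paired test cannot go below 0.125. Of the other genes named, nyn-1 passed under all of these 8-library alternatives but library size alone, enu-3.2 and 3 others (sepa-1, pid-2, zwl-1) in DESeq2, and enu-3.2 with no filter. With the replicate block pid-2, set-9, enu-3.2, sep-1 and zwl-1 passed, and with 1 surrogate variable these as well as ifet-1, sepa-1, hil-4 and WBGene00021411. Depth limits pgl-2 and meg-4, with as few as 2 and 1 counts in a library.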

Other observations

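The genes that flank the members were examined after the values of the members were known. Only him-3, hil-4 and sacy-1, beside pgl-1, pgl-3 and glh-1, are described in detail. Among those tested, the lowest log2 fold change was -0.89 (SE 0.48), for T12F5.2 beside glh-4 (edgeR adjusted p = 0.588). The highest was 1.55 (SE 0.52), for C55B7.11 beside glh-2 (edgeR adjusted p = 0.383), with means of 0.731 CPM in 3A and 0.213 CPM in WT. him-3, a meiotic chromosome axis gene, lies 189 bp from pgl-1 on the opposite strand, with no other annotated protein-coding gene between them. It had 1.26, 1.27, 1.30 and 0.733 CPM in 3A replicates 1 to 4 and 0.569, 1.01, 1.48 and 1.49 CPM in WT replicates 1 to 4, and a log2 fold change of 0.03 ± 0.40 (SE; adjusted p = 0.988, edgeR). hil-4, the nearest protein-coding gene to the left of pgl-3, lies 525 bp away on the same strand and was also the gene with the third closest pattern to pgl-3 among 10520. It had 324, 125, 280 and 308 CPM in 3A replicates 1 to 4 and 249, 51.96, 42.5 and 129 CPM in WT replicates 1 to 4. Its groups overlapped (log2 fold change 1.13 ± 0.54 SE, adjusted p = 0.528 in edgeR). sacy-1, a DEAD-box helicase gene 337 bp to the left of glh-1 on the same strand, had 66.8 ± 6.21 CPM in 3A and 49.5 ± 10.3 CPM in WT (SD, n = 4 each), which is a log2 fold change of 0.43 ± 0.25 (SE; adjusted p = 0.597, edgeR).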
